A study of Mus musculus with 12 samples.

Results

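Quadriceps muscle of 4-week-old offspring of dams given taurine during pregnancy (NP+tau) was compared with that of offspring of dams not given it (NP), using the 6 muscle arrays of a series of 12, with 3 arrays in each group. All 45037 probes other than the 64 control probes entered the comparison. The animals were C57BL/6 mice. Every dam had the normal protein diet (20% casein) from day 1 of pregnancy until birth, and the NP+tau dams had 1% taurine in the drinking water as the only added agent. The 3 pups of a group had 3 different mothers, so the mother and the pup cannot be told apart, and the liver arrays of the series, not used here, came from these pups too. The supplement ended at birth, so the arrays describe muscle 4 weeks after it. The values are log2 expression values made by RMA, which summarises the probes of a set after quantile normalisation of the arrays, and a difference of 1 is a 2-fold difference. Below, a difference is the NP+tau mean minus the NP mean on this log2 scale, with its standard error from limma (n = 3 against 3).

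Skeletal muscle fibres hold much of the body's taurine as a free solute, which they take up from blood through the transporter Slc6a6. In the fibre it takes part in cell volume control and in calcium handling, and in mitochondria it modifies some tRNAs. The quadriceps is mostly fast muscle, and its fibres share the tissue with endothelium, nerve, connective tissue and blood cells. In such bulk samples, fewer cells of a type and less RNA per cell cannot be told apart.

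The label of the tissue fitted its markers. The 13 fibre markers, among them Acta1 (skeletal actin), Ckm (muscle creatine kinase) and Tnnt3 (fast troponin T), had a mean level of 13.8 to 14.0 on every array. Hepatocyte markers averaged 4.61 to 5.23. The arrays correlated at 0.964 to 0.991, and the most alike pair was NP replicate 2 with NP+tau replicate 1, 1 from each group. The 5′ control probe of the 18S ribosomal RNA read 9.39, 10.23 and 8.74 on the NP arrays, above all of the NP+tau arrays at 7.93 to 8.29. Its 3′ probe read 8.83 to 9.61 on the NP arrays and 8.61 to 8.65 on the NP+tau arrays. The middle probe read 7.87 to 9.02 against 7.53 to 7.70, so all of these 18S probes lay higher on the NP arrays. The 3′ minus 5′ difference of the Gapdh control probes was between -0.11 and 0.05 on all arrays. The same difference of the actin control probes was -0.05, 0.03 and 0.16 on the NP arrays and 0.09, 0.13 and 0.37 on the NP+tau arrays, with NP+tau replicate 3 highest and the groups overlapping. The part of these control signals in the results was not tested.

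Xist, the RNA that silences an X chromosome in females, and the Y-linked genes split the arrays unevenly between the 2 groups. One Xist probe read 10.82, 10.81 and 10.56 on NP replicates 1 to 3, and 9.94, 3.61 and 3.57 on NP+tau replicates 1 to 3. Eif2s3y, a Y-linked translation factor gene, read 3.49, 3.71 and 3.48 on the NP arrays and 3.64, 9.37 and 9.24 on the NP+tau arrays. Only NP+tau replicates 2 and 3 had low Xist and high Eif2s3y, and all 3 NP arrays had the reverse, although the study's methods state that every group mixed both sexes. In the comparison of all 6 muscles, taurine and this split therefore cannot be fully told apart. NP+tau replicate 1 alone was also set against the 3 NP arrays, where Xist was high on all 4. This comparison rests on 1 NP+tau muscle. Its values are given below for the leading genes and for the gene lists that the results turn on.

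No probe passed an adjusted p of 0.05 in limma in either direction, and the smallest adjusted p, that of Egr1, was 0.266. At an unadjusted p under 0.05, 1480 probes (3.29%) lay higher and 1686 (3.74%) lower in NP+tau muscle, 7.03% in all. The 3 NP+tau values lay all above the 3 NP values for 2503 probes (5.56%) and all below for 4047 (8.99%), which is 14.5% together, and such probes or genes are called apart upwards or downwards below. Differences of at least 1 were seen for 181 probes upwards (0.402%) and 72 downwards (0.16%), and 43.9% of all differences were above 0 and 56.1% below. Beside these shares the genes below are described with their values, since none was called: the limma adjusted p was 0.559 for Coq10b and Myog and at least 0.679 for every gene named below other than these and Egr1.

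The split by direction changed with the brightness of the probe. Of 15266 probes with a mean level of at least 6, called bright here, 9769 had a difference above 0, the median difference was 0.10, and 10.5% lay apart upwards against 4.26% downwards. Of the 29771 dimmer probes 33.6% had a difference above 0, the median was -0.06, and 3.03% lay apart upwards against 11.4% downwards. The NP arrays had medians of 4.83 to 4.86 over all probes and the NP+tau arrays 4.79 to 4.82. With every array centred on its median, 3957 probes lay apart upwards and 2229 downwards, which turned the split. Small differences in one direction are therefore read here only beside the shift of the bright probes.

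Among bright probes that lay apart upwards, the smallest p belonged to a pair of mitochondrial genes and a muscle transcription factor. Coq10b, which binds coenzyme Q in mitochondria, read 6.07, 6.30 and 6.44 in NP and 7.84, 7.67 and 8.09 in NP+tau, a difference of 1.60 ± 0.15. The lowest NP+tau value lay above the highest NP value by more than the range of either group. A second Coq10b probe differed by 0.91 ± 0.13, also without overlap, and with NP+tau replicate 1 alone the probes differed by 1.57 and 1.03.

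Myog encodes myogenin, a transcription factor of muscle differentiation that is also high in denervated muscle. It read 6.20, 6.39 and 6.35 in NP and 8.10, 7.84 and 7.58 in NP+tau, a difference of 1.53 ± 0.15. The NP values lay close together and all NP+tau values well above them. The difference was 1.40 to 1.66 with any 1 array left out and 1.79 with NP+tau replicate 1 alone. The other 13 measured genes of the list of myogenic regulators and satellite cell genes did not share it. Myod1 differed by 0.04 ± 0.35, Myf5 by -0.02 ± 0.09 and Pax7 by 0.12 ± 0.15, each with overlapping groups. Fst, follistatin, which binds myostatin and activins, lay apart in the other direction at -0.46 ± 0.13. Runx1 and Chrna1, genes of a list of the neuromuscular junction and denervation, differed by -0.44 ± 0.17 and -0.76 ± 0.29, and both groups overlapped.

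Slc25a25, a calcium-regulated carrier of ATP and phosphate in the inner mitochondrial membrane, read 7.45, 7.87 and 7.54 in NP and 8.72, 8.99 and 9.10 in NP+tau. All NP+tau values lay above all NP values, and the difference was 1.32 ± 0.16. Of its other 2 probes, 1 lay apart upwards and 1 differed by -0.06, and with NP+tau replicate 1 alone the difference was 1.10.

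The promoters of the mitochondrial genes at the head of the list are shown for the motifs they hold. Sequences are those of RefSeq for GRCm38.p6, windows of 300 bases that end shortly after a transcription start, and capitals mark a match on either strand to the cyclic AMP response element (TGACGTCA), the E-box (CACGTG), the TATA box (TATAAA) or the heat shock element.
Coq10b (chr1:55052520-55052819, plus strand): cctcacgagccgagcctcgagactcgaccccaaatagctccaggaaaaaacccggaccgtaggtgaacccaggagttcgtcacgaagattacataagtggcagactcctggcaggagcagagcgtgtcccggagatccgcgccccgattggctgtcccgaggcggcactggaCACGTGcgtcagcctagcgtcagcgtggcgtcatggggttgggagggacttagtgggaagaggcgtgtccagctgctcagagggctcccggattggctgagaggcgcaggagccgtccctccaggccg
Slc25a25 (chr2:32424017-32424316, minus strand): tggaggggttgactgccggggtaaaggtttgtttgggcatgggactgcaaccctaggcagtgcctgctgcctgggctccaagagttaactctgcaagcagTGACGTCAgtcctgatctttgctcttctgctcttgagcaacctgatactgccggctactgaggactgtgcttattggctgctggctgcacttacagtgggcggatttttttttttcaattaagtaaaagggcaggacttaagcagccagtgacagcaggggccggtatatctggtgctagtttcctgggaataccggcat
The Coq10b window holds the E-box and this Slc25a25 window the cyclic AMP response element. Which start the muscles used was not measured, and Slc25a25 has 3 windows in RefSeq, of which the other 2 hold none of the motifs. Of all 32851 windows, 7.15% hold this E-box, 1.79% the cyclic AMP response element, 13.6% the TATA box and 0.603% the heat shock element. A window was found for 9 of the 12 genes named upwards and for 7 of the 12 named downwards. Of the 12 windows upwards 1 holds the cyclic AMP response element and 1 the E-box, and of the 9 downwards 1 holds the cyclic AMP response element and 3 the TATA box. These matches are a description of the letters and say nothing of binding.

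The remaining genes named upwards by the same rule were Mast4, Mapk8, Cdh5, Ice1, Zdhhc13, Trmt1l, Usp9x, Ung and Tie1. Mast4, a microtubule-associated kinase, read 4.89, 5.42 and 5.51 in NP and 6.64, 7.18 and 6.99 in NP+tau, a difference of 1.66 ± 0.21, but of its 8 probes 4 had a difference above 0 and 4 below. Mapk8, the stress kinase JNK1, differed by 0.76 ± 0.10, and all 5 of its probes had a difference above 0. Ung, the glycosylase that removes uracil from nuclear and mitochondrial DNA, differed by 0.93 ± 0.15. Usp9x, an X-linked deubiquitinase, differed by 0.60 ± 0.09 and by 0.66 with NP+tau replicate 1 alone. This was the largest difference of its 7 probes, of which 5 had a difference above 0 and 2 below.

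Cdh5 and Tie1 are genes of the endothelium, the cell-cell adhesion protein VE-cadherin and a receptor tyrosine kinase. Cdh5 read 6.89, 7.11 and 7.02 in NP and 7.79, 7.69 and 7.71 in NP+tau, a difference of 0.73 ± 0.10. Tie1 read 6.94, 7.17 and 7.29 against 7.91, 7.87 and 7.79, a difference of 0.73 ± 0.12. Both groups were narrow and lay apart. Of 13 endothelial markers 11 had a difference above 0, with a median of 0.29, and 4 lay apart upwards: Cdh5, Tie1, Ptprb at 0.40 ± 0.13 and Tek at 0.46 ± 0.19. The mean level of the 13 was 8.04, 8.14 and 8.26 in NP and 8.53, 8.44 and 8.38 in NP+tau. The median difference of the 13 was 0.38 with NP+tau replicate 1 alone, and the second Cdh5 probe differed by 0.01.

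**Figure D1:**
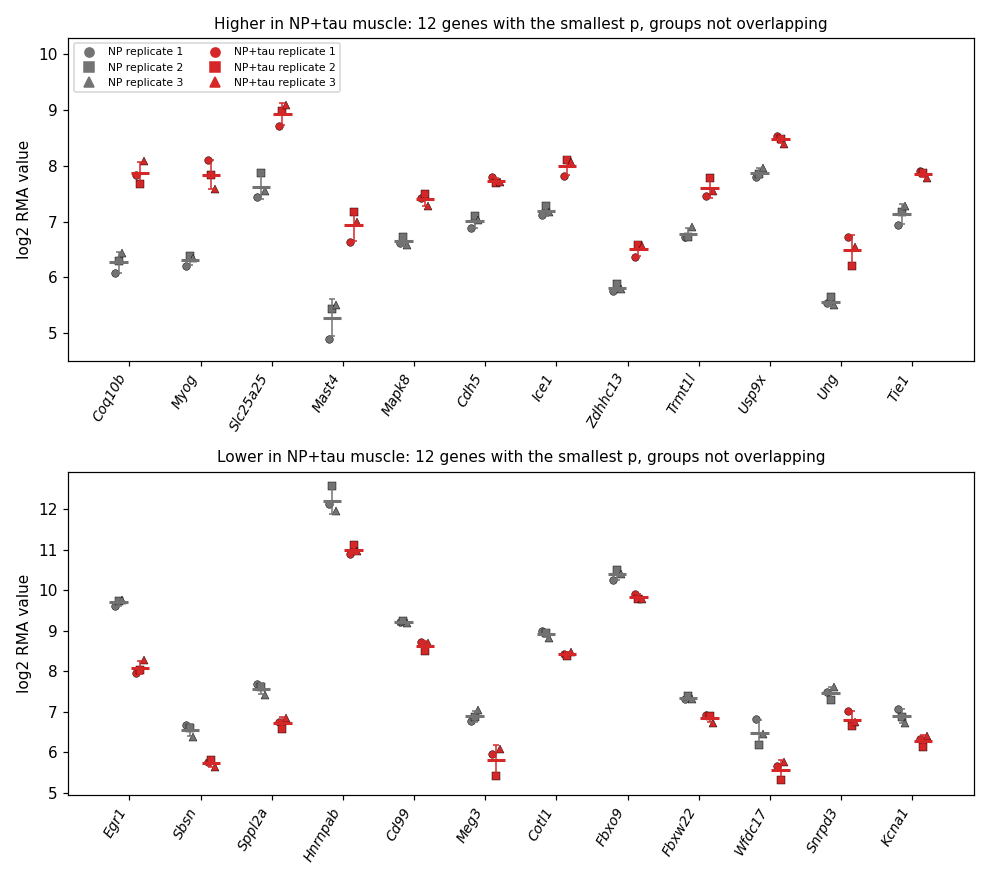
Log2 RMA value (y axis) of the 12 genes named in each direction (x axis), with NP muscle in grey and NP+tau muscle in red. Points are single muscles, bars the mean and whiskers the SD (n = 3), and the groups do not overlap for any gene shown, with differences from -1.61 for Egr1 to 1.66 for Mast4.

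Egr1 had the smallest p of all probes. It encodes a zinc finger transcription factor that is transcribed within minutes of a stimulus. It read 9.61, 9.72 and 9.76 in NP and 7.96, 8.02 and 8.28 in NP+tau, a difference of -1.61 ± 0.12. The values of each group lay close together and the groups stood far apart, the difference was -1.70 to -1.55 with any 1 array left out, and it was -1.73 with NP+tau replicate 1 alone.

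Other genes of the early response differed in both directions. Of 27 genes of the list 14 had a difference above 0, the median was 0.00, and 4 lay apart in each direction. Fos read 8.91, 9.11 and 9.69 in NP and 8.57, 8.83 and 8.48 in NP+tau, a difference of -0.61 ± 0.22. Ccn1 and Egr3 differed by -0.46 ± 0.15 and -0.32 ± 0.12 and also lay apart downwards. Upwards, Klf2, a transcription factor of the endothelium, read 8.42, 8.59 and 8.57 against 9.05, 9.12 and 9.33, and Nr4a1, a nuclear receptor induced by activity, differed by 1.00 ± 0.35. Nr4a3, a relative of Nr4a1, differed by 1.03 ± 0.31 on its brightest probe and by -0.07 and -0.38 on the others. Atf3, a stress-induced transcription factor, differed by 1.73 ± 0.49 and its highest value was that of NP+tau replicate 2.

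Downwards, the rule further named Sbsn, Sppl2a, Hnrnpab, Cd99, Meg3, Cotl1, Fbxo9, Fbxw22, Wfdc17, Snrpd3 and Kcna1. Cd99, a surface glycoprotein of leukocytes and endothelium, read 9.22, 9.23 and 9.19 in NP and 8.71, 8.50 and 8.69 in NP+tau, a difference of -0.58 ± 0.10, and all 3 of its probes lay apart. Both probes of Fbxo9, which encodes an F-box protein, lay apart, the one named at -0.57 ± 0.11. The Hnrnpab probe named differed by -1.21 ± 0.18, while 5 of the 7 Hnrnpab probes had a difference above 0. Of the 6 probes of Cotl1, an actin-binding protein gene, 3 differed in each direction, so neither gene has 1 direction here. Sppl2a, an intramembrane protease gene, has none either, since the probe named differed by -0.84 ± 0.12, another lay apart upwards at 0.17 ± 0.10 and the last differed by -0.01. With NP+tau replicate 1 alone, the 12 genes named upwards differed by 0.56 (Zdhhc13) to 1.79 (Myog) and the 12 named downwards by -1.73 (Egr1) to -0.40 (Fbxw22). The rule had required all NP+tau values to lie beyond all NP values, so these signs were fixed in advance and only the sizes are described.

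Imprinted RNAs of the Dlk1-Dio3 domain of chromosome 12 were among the largest differences downwards. This group of genes was chosen after its values had been seen, so its counts are a description. In this domain Dlk1, which encodes a transmembrane protein of the Notch ligand type, is transcribed from the paternal allele, and Meg3, Rian and Mirg, long noncoding RNAs that host small RNAs, from the maternal one. In RefSeq the order is Dlk1, Meg3, Rtl1, Rian, Mirg and Dio3, and Rtl1 and Dio3 were not matched to a probe here.

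Meg3 lay apart downwards on 11 of 11 probes, Rian on 4 of 4, and Mirg and Dlk1 on 1 of 2 each. One Meg3 probe read 11.93, 12.34 and 11.98 in NP and 10.80, 9.19 and 10.97 in NP+tau, a difference of -1.76 ± 0.47. A Rian probe read 8.72, 8.91 and 8.85 in NP and 7.47, 5.84 and 7.58 in NP+tau, a difference of -1.87 ± 0.46. The NP muscles were close together on both probes, and of the NP+tau muscles replicate 2 lay far below the other 2. Mirg read 8.58, 9.05 and 8.86 against 7.63, 5.88 and 7.81, and Dlk1 8.26, 7.54 and 6.77 against 6.60, 5.52 and 6.45. In Dlk1 the NP muscles were spread, and the lowest of them was 0.17 above the highest NP+tau muscle. Meg3 probes report overlapping transcripts and are not independent of each other.

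The 4 genes had a median difference of -1.43 by their brightest probes, -0.98 without NP+tau replicate 2 and -0.98 with NP+tau replicate 1 alone. Among the other measured imprinted genes 11 of 25 had a difference above 0. Igf2, the fetal growth factor, read 12.97, 12.72 and 12.12 in NP and 11.79, 11.23 and 11.41 in NP+tau, a difference of -1.13 ± 0.25, and its second probe differed by -1.54 ± 0.39. Peg3, an imprinted zinc finger gene, read 12.23, 11.28 and 10.36 against 9.72, 10.16 and 9.91. Both genes lay apart downwards with the highest value in NP replicate 1, while Kcnq1ot1, an antisense RNA that silences its domain, lay apart upwards at 0.70 ± 0.23.

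The promoter windows of Meg3 and Dlk1 are shown because these genes differed together, with capitals as before.
Meg3 (chr12:109540746-109541045, plus strand): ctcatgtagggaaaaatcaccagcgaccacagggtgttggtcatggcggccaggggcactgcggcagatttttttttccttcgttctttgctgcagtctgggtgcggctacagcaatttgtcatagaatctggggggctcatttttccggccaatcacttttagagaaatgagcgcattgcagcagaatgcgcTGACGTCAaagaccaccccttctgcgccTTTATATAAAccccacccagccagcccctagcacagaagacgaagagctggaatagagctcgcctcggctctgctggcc
Dlk1 (chr12:109452573-109452872, plus strand): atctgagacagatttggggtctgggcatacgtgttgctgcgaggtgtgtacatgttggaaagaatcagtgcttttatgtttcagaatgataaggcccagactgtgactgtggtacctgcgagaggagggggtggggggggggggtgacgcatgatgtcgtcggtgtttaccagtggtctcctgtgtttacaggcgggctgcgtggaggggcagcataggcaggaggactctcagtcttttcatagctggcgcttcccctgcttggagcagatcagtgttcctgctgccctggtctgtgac
The Meg3 window holds the cyclic AMP response element and 2 overlapping matches to the TATA box. The Dlk1 window, the second Meg3 window and those of Rian and Mirg hold none of the motifs.

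**Figure D2:**
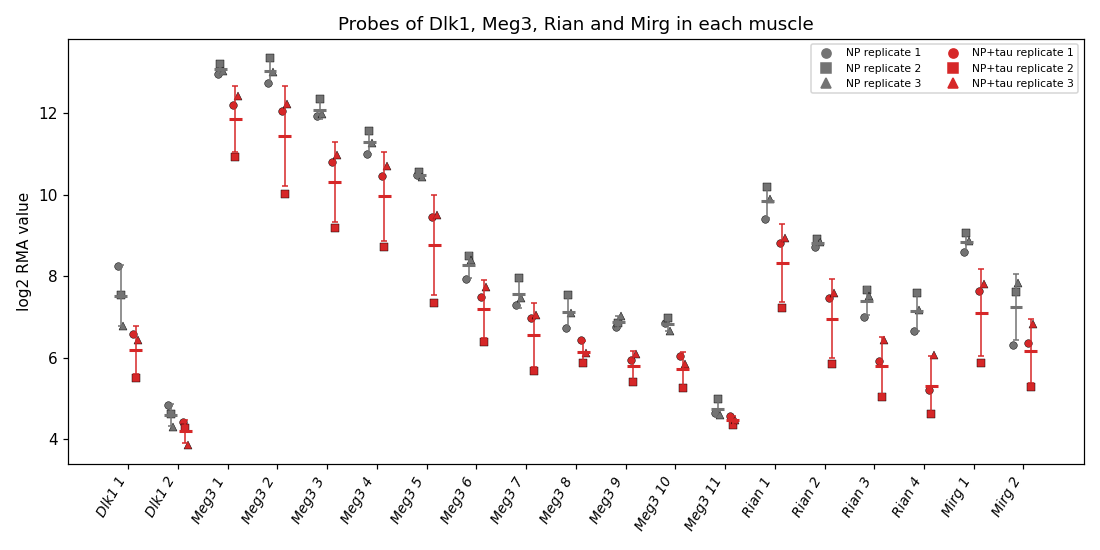
Log2 RMA value (y axis) of each probe of Dlk1, Meg3, Rian and Mirg (x axis, brightest probe of a gene first), with NP muscle in grey and NP+tau muscle in red. Points are single muscles, bars the mean and whiskers the SD (n = 3), and NP+tau replicate 2 is the lowest muscle on most probes, as on the Rian probe where it read 5.84.

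Large differences downwards outside the domain included genes of calcium handling and membrane excitability. Sln, sarcolipin, a small inhibitor of the calcium pump of the sarcoplasmic reticulum, read 11.99, 10.41 and 9.87 in NP and 9.24, 7.42 and 7.49 in NP+tau, a difference of -2.71 ± 0.69. Gabrr2, a GABA receptor subunit gene, read 8.69, 7.36 and 6.07 in NP and 5.11, 4.23 and 5.43 in NP+tau, a difference of -2.45 ± 0.67. NP replicate 1 was the highest muscle for both genes, the groups did not overlap, and without it the differences were -2.09 and -1.79. With NP+tau replicate 1 alone they were -1.52 and -2.27.

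Among the remaining large differences, Nabp1, a single-strand DNA-binding protein gene, read 5.63, 7.54 and 7.31 in NP and 8.34, 8.82 and 8.41 in NP+tau, a difference of 1.69 ± 0.50 with all 6 of its probes apart upwards. Tcim differed by 1.63 ± 0.53 and by 1.01 without NP replicate 1. Downwards, Tmem100 read 8.18, 7.57 and 7.45 in NP and 6.40, 5.45 and 6.68 in NP+tau, and Maged2, an X-linked gene of the MAGE family, differed by -1.45 ± 0.39. Both had 2 probes, and both probes of each lay apart. Apod, apolipoprotein D, differed by -1.41 ± 0.98 with overlapping groups, since it was highest in NP replicate 1 at 11.9 and next highest in NP+tau replicate 2 at 10.1.

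Of 19 genes of excitation-contraction coupling and ion channels 8 had a difference above 0, and the 5 that lay apart downwards were Sln, Kcnc4, Kcna1, Cacng1 and Kcnj11. Kcnc4, a voltage-gated potassium channel gene, read 9.53, 9.74 and 9.60 in NP and 9.28, 8.60 and 8.77 in NP+tau, a difference of -0.74 ± 0.19. Cacng1, a subunit gene of the muscle calcium channel, differed by -0.81 ± 0.29 and Kcnj11, an ATP-sensitive potassium channel gene, by -0.31 ± 0.11. Of 4 probes of Kcna1, a potassium channel gene also used by nerve, 3 lay apart downwards. Ryr1, the calcium release channel, lay apart upwards by 0.15 ± 0.09 on its brightest probe and downwards by -0.21 ± 0.11 on the other. The list's mean level was 10.02, 10.20 and 10.20 in NP and 10.22, 9.52 and 9.95 in NP+tau, with NP+tau replicate 2 lowest. All 10 measured markers of Schwann cells and nerve had a difference below 0, with a median of -0.33 and 1 gene, Sox10, apart. Their mean level was 7.37, 7.81 and 7.46 in NP and 7.59, 7.08 and 6.96 in NP+tau, and their part in the potassium channel values was not tested. With NP+tau replicate 1 alone the median was 0.06 for the nerve markers and 0.14 for the channel list, so both lists lay below 0 only with the other NP+tau muscles included.

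Genes of the fibre types did not separate the groups. Of 14 fast sarcomere genes 8 had a difference above 0 with a median of 0.01, and none lay apart. The brightest probes of these genes had mean levels of 13.4 (Casq1) to 14.7 (Mylpf). Whether values this high could show a difference was not tested. The dimmer Tpm1 probes differed by -0.74, 0.19 and -0.17, each with overlapping groups. Of 14 slow sarcomere genes 10 had a difference above 0 with a median of 0.16, and again none lay apart. The slow genes' mean level was 11.4, 10.7 and 11.4 in NP and 11.7, 10.8 and 11.3 in NP+tau, so that muscles of both groups were high and low, and with NP+tau replicate 1 alone, the highest muscle, their median was 0.80. Myh8 and Myh3, the neonatal and embryonic myosins, differed by -0.50 ± 0.21 and -1.15 ± 0.64, and only Myh8 lay apart.

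Mitochondrial gene lists lay mostly above 0, as did the bright probes as a whole. Of all 18193 genes by their brightest probe, 8614 had a difference above 0, 780 were at an unadjusted p under 0.05 upwards and 671 downwards, and 1231 lay apart upwards and 1560 downwards. The list of mitochondrial RNA and translation held 25 measured genes, of which 23 had a difference above 0, 9 were at an unadjusted p under 0.05 upwards and 10 lay apart upwards. The median was 0.38, against 0.10 for the bright probes. Mrm1, Pnpt1 and Lactb2 of this list had been chosen by the study on these same arrays, and all of them are in these counts. The mean level of the list was 7.22, 7.45 and 7.45 in NP and 7.75, 7.69 and 7.70 in NP+tau, and no muscle of one group reached the other.

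Mrm1, a methyltransferase of the mitochondrial ribosomal RNA, read 4.84, 5.21 and 5.27 in NP and 5.64, 6.15 and 6.03 in NP+tau, a difference of 0.83 ± 0.18 at a dim level. Pnpt1, the mitochondrial polynucleotide phosphorylase, differed by 0.64 ± 0.15 on its bright probe, while of its 2 dim probes 1 lay apart downwards. Tufm, the mitochondrial elongation factor, read 8.74, 8.89 and 8.93 against 9.37, 9.25 and 9.06. Lrpprc, which stabilises mitochondrial messenger RNAs, differed by 0.47 ± 0.16. In each of these genes NP replicate 1 or 2 was the lowest muscle and the groups did not overlap.

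Fatty acid oxidation was next, with 17 of 19 genes above 0, 4 apart upwards and a median of 0.35. Cpt2, the inner membrane carnitine palmitoyltransferase, read 9.29, 9.38 and 9.51 in NP and 10.17, 9.89 and 10.03 in NP+tau, a difference of 0.64 ± 0.11. Hadhb, of the mitochondrial trifunctional protein, differed by 0.47 ± 0.13 and Acadvl, the very long chain acyl-CoA dehydrogenase, by 0.59 ± 0.21. Crat, which makes acetylcarnitine, differed by 0.30 ± 0.13. All 4 lay apart, and NP replicate 1 was the lowest muscle in each.

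Genes of respiration itself differed less. Of 68 genes of oxidative phosphorylation 51 had a difference above 0, but none was at an unadjusted p under 0.05, 3 lay apart upwards, and the median was 0.09. Without NP replicate 1 the median was -0.01 and without NP+tau replicate 1 it was -0.004. The mean level of the 68 was 12.1, 12.4 and 12.4 in NP and 12.5, 12.2 and 12.4 in NP+tau. Of 25 genes of the TCA cycle and pyruvate oxidation 20 had a difference above 0, with a median of 0.14 and 6 apart upwards, and without NP replicate 1 the median was 0.05. Pdha1, of the pyruvate dehydrogenase complex, differed by 0.35 ± 0.12 and Mdh1, malate dehydrogenase, by 0.46 ± 0.17.

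Of 19 genes of PGC-1 and mitochondrial biogenesis 15 had a difference above 0, with a median of 0.29 and 4 apart upwards. Esrrg, an oestrogen-related receptor of oxidative muscle, read 5.79, 6.04 and 6.20 in NP and 7.25, 6.91 and 6.72 in NP+tau, a difference of 0.95 ± 0.17. Ppargc1a, the coactivator PGC-1 alpha, differed by -0.35 ± 0.26 on its brightest probe with overlapping groups. Tfam, which packs mitochondrial DNA, lay apart upwards at 0.28 ± 0.13. Among 12 coenzyme Q genes 9 had a difference above 0, and besides Coq10b its relative Coq10a lay apart at 0.33 ± 0.13 on its brightest probe, with a dimmer probe apart downwards at -0.55 ± 0.18.

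The study had chosen 11 mitochondrial genes on these same arrays, so their direction is no independent evidence. Among them are Mrm1, Pnpt1 and Lactb2 of the RNA and translation list, Cpt2 of fatty acid oxidation and Coq10b of coenzyme Q. The counts of those lists are therefore not independent of that choice. By the brightest probe of each, all 11 had a difference above 0, 9 lay apart upwards and the median was 0.64, with 0.61 to 0.76 when any 1 array was left out. Besides the genes already given, Msrb2, a mitochondrial methionine sulfoxide reductase, read 4.82, 5.39 and 5.76 in NP and 6.81, 6.18 and 6.50 in NP+tau. Ogdh and Mrpl50, of oxoglutarate oxidation and the mitochondrial ribosome, overlapped on their brightest probes at 0.23 ± 0.11 and 0.27 ± 0.21, while the probes the study had chosen for them lay apart upwards at 0.61 ± 0.13 and 0.74 ± 0.16. The chosen Ogdh probe was dim, at a mean level of 5.99 against 11.39 for the brightest Ogdh probe. Msrb2 was dim too, at 5.91. With NP+tau replicate 1 alone the median was 0.69 for the 11 genes, 0.43 for mitochondrial RNA and translation, 0.47 for fatty acid oxidation, 0.25 for oxidative phosphorylation and 0.15 for PGC-1 and biogenesis.

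Genes that make or carry taurine differed little. Of 11 measured genes 9 had a difference above 0, the median was 0.04, and 1 lay apart upwards. That gene was Ado, a thiol dioxygenase that makes hypotaurine from cysteamine, at 7.94, 8.80 and 8.46 in NP and 8.90, 9.10 and 8.81 in NP+tau. Slc6a6, the taurine transporter, read 10.07, 10.08 and 10.34 in NP and 9.91, 10.90 and 9.76 in NP+tau, a difference of 0.03 ± 0.30. Mto1, which takes part in the taurine modification of mitochondrial tRNAs, differed by 0.26 ± 0.14 with overlapping groups.

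**Figure D3:**
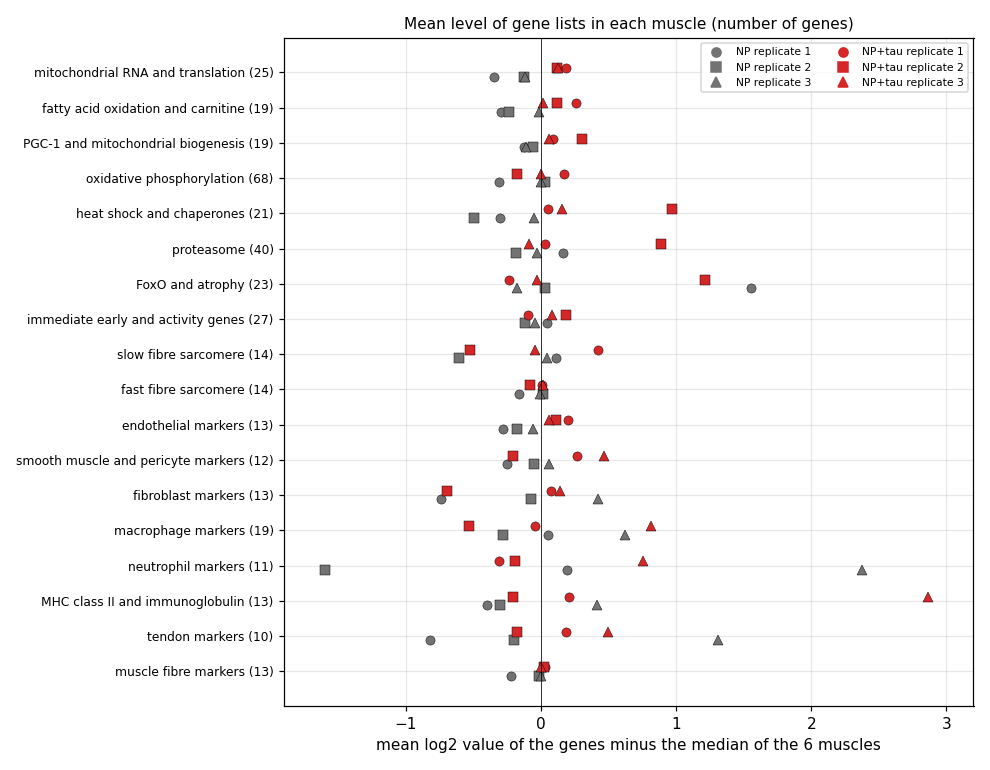
Mean log2 value of the measured genes of each list (y axis, number of genes in brackets) in each muscle, minus the median of the 6 muscles (x axis), with NP in grey and NP+tau in red. The groups are apart, for example, for mitochondrial RNA and translation, while single muscles stand out for FoxO and atrophy (NP replicate 1 and NP+tau replicate 2), neutrophil markers (NP replicates 2 and 3) and MHC class II and immunoglobulin (NP+tau replicate 3).

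Heat shock genes lay above 0 with 1 muscle in the lead. Of 21 measured chaperone genes 20 had a difference above 0, 9 were at an unadjusted p under 0.05 upwards and 14 lay apart upwards, with a median of 0.66. The mean level was 9.43, 9.24 and 9.68 in NP and 9.78, 10.7 and 9.89 in NP+tau. NP+tau replicate 2 was far the highest. Without it the median was 0.44, and with NP+tau replicate 1 alone it was 0.42. Hspa1b, an inducible HSP70 gene, read 7.13, 6.48 and 7.68 in NP and 8.09, 11.04 and 8.20 in NP+tau, a difference of 2.01 ± 0.82 that was 1.05 without NP+tau replicate 2. Hspa1a is a near-identical copy, and its probe cannot be read apart from it. Hspd1, the mitochondrial chaperonin, differed less but evenly, at 10.70, 10.90 and 11.02 in NP against 11.38, 11.23 and 11.29 in NP+tau.

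Proteasome and antioxidant genes followed the same muscle. Of 40 proteasome genes 38 had a difference above 0 with a median of 0.27, but 5 lay apart upwards, and without NP+tau replicate 2 the median was -0.05. Their mean level was 11.1 in NP+tau replicate 2 and 10.04 to 10.39 in the other muscles. Of 25 antioxidant genes 18 had a difference above 0 with a median of 0.23, and -0.01 without NP+tau replicate 2. Srxn1, sulfiredoxin, read 10.77 in NP+tau replicate 2 and 6.26 to 7.02 elsewhere.

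How far single muscles stood apart was counted next, as the difference of at least 1 between 1 muscle and all the other 5. NP+tau replicate 2 stood above the others on 495 probes and below on 124, NP+tau replicate 3 on 395 and 7, and NP replicate 1 on 145 and 137. NP replicate 3 stood above on 81 and below on 1, NP replicate 2 on 4 and 15, and NP+tau replicate 1 on 1 and 1. Both groups thus held 1 or 2 muscles with many such probes.

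**Figure D4:**
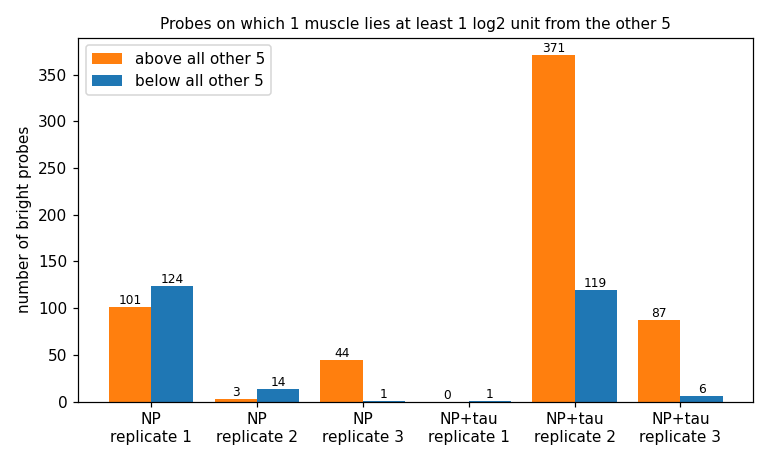
Number of bright probes (y axis) on which a muscle (x axis) lay at least 1 log2 unit above (orange) or below (blue) all other 5 muscles. NP+tau replicate 2 has 371 and 119 such probes, and NP+tau replicate 1 has 0 and 1.

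Large differences of group means often rested on such muscles. Of the 181 probes with a difference of at least 1 upwards, 83 lay apart, 34 kept a difference of at least 1 with any 1 array left out, and 74 came below 0.5 with some array left out, 42 of them without NP+tau replicate 3 and 24 without NP+tau replicate 2. Of the 72 downwards, 43 lay apart, 21 kept the difference and 18 came below 0.5 in size, 12 of them without NP replicate 1. Probes of Coq10b, Myog, Slc25a25, Mast4, Egr1, Sln, Gabrr2 and Rian were among those that kept it. This holds for probes and not for every probe of a gene. Of the 8 Mast4 probes 4 had a difference below 0, and the second Sln probe, a dim one, differed by -0.36 with overlapping groups.

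NP replicate 1 stood apart from all other muscles on single genes of several kinds. Aplnr, the apelin receptor, read 4.05 there and 8.62 to 9.34 in the other 5, and its difference of 1.81 ± 1.31 was 0.18 without that muscle. The gap was smaller on its second probe, which read 5.41 there and 6.27 to 6.88 elsewhere. Actc1, cardiac actin, read 9.78 there and 13.28 to 14.01 elsewhere. Mb, myoglobin, read 11.29 there and 13.43 to 13.95 elsewhere. In the other direction Sesn1, a stress gene that FoxO factors induce, read 11.90 there and 8.81 to 9.75 elsewhere on its brightest probe.

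The 23 genes of FoxO and atrophy were high in 1 muscle of each group, at a mean level of 10.9 for NP replicate 1 and 10.6 for NP+tau replicate 2. The remaining muscles had 9.16 to 9.43. Fbxo32, the muscle ubiquitin ligase atrogin-1, read 13.08, 10.23 and 7.68 in NP and 8.77, 12.23 and 8.52 in NP+tau. The groups overlapped over their whole range, the difference was -0.49 ± 1.56, and none of the 23 genes lay apart. Fkbp5, a glucocorticoid-induced gene, read 10.99 in NP replicate 1, 9.48 in NP+tau replicate 2 and 6.84 to 8.46 elsewhere. The list's median of -0.16 was 0.24 without NP replicate 1 and -0.57 without NP+tau replicate 2, and it was 0.06 without NP+tau replicate 1, so its direction turned with the muscle left out.

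NP+tau replicate 2 also stood apart on Hmox1, haem oxygenase, which read 9.87 there and 5.81 to 6.92 elsewhere. Aqp4, the water channel of fast fibres, read 5.39 there and 8.31 to 10.07 elsewhere. Both genes overlapped between the groups.

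NP+tau replicate 3 carried genes of lymphocytes and antigen presentation. H2-Aa, an MHC class II chain, read 11.25 there and 5.46 to 7.61 elsewhere, and Cd74, the invariant chain, 10.74 there and 6.50 to 7.55 elsewhere. Ms4a1, the B cell surface protein CD20, read 8.86 there and 3.76 to 4.03 elsewhere. Of 11 lymphocyte markers 8 had a difference above 0 with a median of 0.75, which was -0.19 without that muscle, and their mean level was 7.09 there and 4.85 to 5.09 elsewhere. Ighm, the heavy chain of immunoglobulin M, read 4.99, 5.15 and 6.88 in NP and 8.46, 5.94 and 9.95 in NP+tau, a difference of 2.45 ± 1.05, the largest upwards among bright probes with 1 gene symbol, with overlapping groups. Of its 11 probes 3 had a difference above 0 and 8 below, 2 of them apart downwards, but only 3 of the 11 were bright. Besides the probe given, a bright probe differed by 1.49 ± 0.73 and another lay apart downwards at -0.28 ± 0.10. Ighm therefore has no single direction here. All 13 genes of a list of MHC class II and immunoglobulin, also chosen after values were seen, had a difference above 0 with a median of 1.16, which was 0.14 without NP+tau replicate 3.

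NP replicates 2 and 3 stood at the ends of the neutrophil genes. The mean level of 11 neutrophil markers was lowest in NP replicate 2 at 5.60 and highest in NP replicate 3 at 9.58, with the remaining muscles between 6.89 and 7.95. S100a8, a calcium-binding protein of neutrophils, read 7.15 in NP replicate 2 and 9.61 to 12.46 elsewhere, and Mpo, myeloperoxidase, 9.87 in NP replicate 3 and 5.36 to 6.63 elsewhere. Col2a1, the collagen of cartilage, read 10.86 in NP replicate 3 and 5.68 to 6.65 elsewhere. These genes separated muscles within the NP group. The 28 genes of the extracellular matrix had a mean level of 9.07 in NP replicate 1 and 10.6 in NP replicate 3, a range that held all of the NP+tau muscles, and the 10 tendon markers ran from 6.12 to 8.25 in the same 2 muscles.

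**Figure D5:**
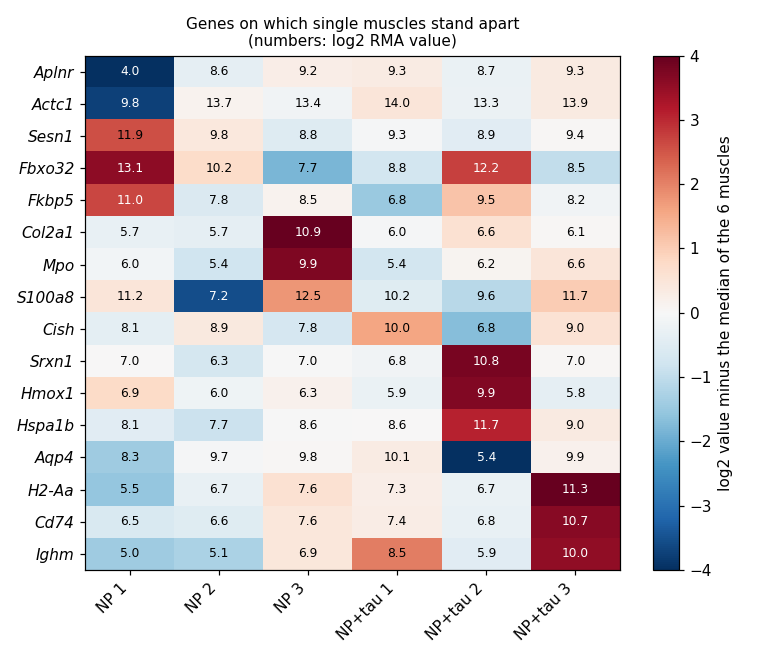
Log2 RMA value of 1 probe of each of 16 genes (rows) in each muscle (columns), coloured by the difference from the median of the 6 muscles, with red above and blue below. Single muscles stand apart, as NP replicate 1 on Aplnr (4.05), NP replicate 3 on Col2a1 (10.86), NP+tau replicate 2 on Srxn1 (10.77) and NP+tau replicate 3 on H2-Aa (11.25).

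NP+tau replicate 1 was the muscle with the fewest values of its own. Cish, a cytokine-inducible inhibitor of JAK-STAT signalling, read 10.04 there and 6.76 to 9.05 elsewhere. Fndc5, the precursor of irisin, read 6.16, 7.02 and 7.30 in NP and 8.53, 7.70 and 7.69 in NP+tau, a difference of 1.15 ± 0.36 without overlap. Of the 2251 bright probes whose groups did not overlap, this muscle was the NP+tau muscle nearest to the NP mean on 985, NP+tau replicate 2 on 532 and NP+tau replicate 3 on 734.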

How the data were processed

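RNA of 6 quadriceps muscles was hybridised to Affymetrix mouse arrays. The authors deposited log2 expression values made by RMA, with the arrays of a tissue quantile normalised together, so all comparisons stayed within muscle, and the liver columns were not used. The study removed probes absent on every array before its tests. Absence calls were not used here, and a filter on dim probes took that step's place among the alternatives. Array values carry no read depth, and the number of arrays limits the precision.

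NP+tau was compared with NP with limma 3.58.1 (lmFit, then eBayes; R 4.3.3), two-sided, with Benjamini-Hochberg adjustment over 45037 probes and a threshold of 0.05. Checked on simulated data, the fit recovered known differences. Symbols came from the platform annotation: 34945 probes had 1 symbol, 932 several and 9160 none, and only the first were named. Probes whose names end in _s_at or _x_at can bind related transcripts.

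By 3 rules, genes were named from bright probes only. The first took the 12 in each direction with the smallest p and no overlap, and the second the 10 with the largest difference. The third took the 4 on each side on which a muscle stood farthest apart. Outside these rules, members of the gene lists, sex-linked genes and the genes chosen by the study were named at any brightness, among them the dim Mrm1 and Msrb2. Many of the list members shown had the smallest p of their list in its leading direction. Such members do not stand for their list as a whole. Members of 49 gene lists, from which 70 of 953 names were not matched, were described by counts and medians on the brightest probe of a gene, with no set test. Members and lists were chosen with earlier results of these data known, and 3 lists (the Dlk1-Dio3 domain, other imprinted genes, MHC class II and immunoglobulin) after the values had been seen. Figures were drawn with matplotlib.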

Additional observations from a re-analysis of the deposited data

How the results depend on the processing

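No probe passed an adjusted p of 0.05 under any alternative with 1 exception. Without NP+tau replicate 1, limma called 3 probes higher and 2 lower: Eif2s3y and 2 probes without a gene in the annotation, and 2 of the 3 Xist probes. With 1 array left out in turn, calls ranged from 0 to 3 upwards and 0 to 2 downwards, probes at an unadjusted p under 0.05 from 805 to 2065 upwards and 792 to 2206 downwards, differences of at least 1 from 149 to 455 and 66 to 150, and probes apart from 3771 to 5218 and 5572 to 8536, the last pair because 5 arrays overlap less often than 6. Filters on dim probes left 703 (35th percentile) and 441 (median) probes downwards at an unadjusted p under 0.05, against 1090 and 889 upwards. They left 2274 and 1419 apart downwards, against 2147 and 1969 upwards. Without a filter, dim probes made up 1267 of the 1686 probes downwards at an unadjusted p under 0.05. Centring gave 846 downwards at an unadjusted p under 0.05, and 3957 apart upwards against 2229. With Xist as a covariate 594 and 423 probes were at an unadjusted p under 0.05, and 153 differed by at least 1 downwards. Without NP+tau replicates 2 and 3 together these were 881, 518 and 144, with 10651 and 11982 apart. That comparison sets 1 NP+tau array against 3 NP arrays, and by chance alone 1 array lies beyond 3 others far more often than 3 arrays do. Its numbers of probes apart therefore cannot be set beside those of the other fits, and no conclusion is drawn from them. Its counts at an unadjusted p under 0.05 rest on 1 NP+tau muscle too. The cause of the remaining changes was not tested.

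With the replicate number as a block, 1633 probes upwards and 1668 downwards were at an unadjusted p under 0.05 and 0 passed. The numbers did not pair the muscles, with same-number deviations correlated at -0.19, -0.25 and 0.33.

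The sign of sex-linked genes changed under some alternatives. With Xist as a covariate, the second Xist probe came to 0.00, Uty to -0.014 and Ddx3x to 0.011. This covariate takes out the difference of a gene that follows Xist, so signs this near 0 are not read as a direction. Without NP+tau replicates 2 and 3 together Kdm5c came to -0.038. With 1 array left out in turn, Kdm5c ranged from -0.203 to 0.402, Eif2s3x from -0.0156 to 0.215 and Ddx3x from -0.186 to 0.0904. Of all 1030 values for genes under the alternatives, 1019 kept their sign and their side of the threshold, and 8 changed sign as given here. The remaining 3 came to pass the threshold, those of Eif2s3y and of the 2 Xist probes without NP+tau replicate 1. No gene had passed in the main fit, and genes that lie apart cannot change sign when an array is left out. The 1019 was therefore partly fixed in advance by the choice of genes. Of the list medians, 139 of 784 moved by more than the spread between replicates.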
